A study of Mus musculus with 4 samples.

Results

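Perforin and the cytotoxic granule machinery were followed through 10 genes: Prf1, Srgn, Nkg7, Lamp1, Unc13d, Rab27a, Stx11, Ctsw, Serpinb9 and Serpinb6b. The genes were taken by name, all 10 of them stood among the 16338 rows of the deposited tables, and all 10 passed the filter of a mean of at least 1 normalized count that left 16102 genes. RNA was sequenced from sorted mouse T cells that had spent 48 h with B cells pulsed with M9 or K8 peptide. The T cells bore 1 of 2 T cell receptors (TCRs), which the labels call TRP1high and TRP1low. The 4 groups were TRP1high with M9, TRP1high with K8, TRP1low with M9 and TRP1low with K8. Each was a single library of total RNA, so no value has a replicate. All groups shared the B cells and the sorting. No source used here gives the strain, age or sex of the mice.

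Cytotoxic T cells kill by releasing preformed granules at the contact with a target cell. Perforin, encoded by Prf1, opens pores through which granzymes enter, and serglycin, encoded by Srgn, is the proteoglycan core on which these proteins are stored. Rab27a, a small GTPase, docks granules at the membrane, Unc13d (Munc13-4) primes them, and Stx11 (syntaxin 11) takes part in their fusion. Lamp1 (CD107a) and Nkg7 are granule membrane proteins, Ctsw (cathepsin W) is a cysteine protease of killer lymphocytes, and Serpinb9 is an intracellular serpin that inhibits granzyme B and shields the killer cell from its own enzyme.

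The libraries held 29.6 to 41.5 M estimated reads, the fewest in TRP1low with K8. All values are log2 (normalized counts + 1) as deposited unless a sentence says otherwise. All 12 CD8 T cell markers were measured, and their summed level was 196972 and 154038 normalized counts in TRP1high with M9 and K8, and 196053 and 189866 in TRP1low with M9 and K8. All 14 B cell markers were measured too, and their sum was 172 normalized counts in TRP1high with M9, against 2075 with K8, and 404 in TRP1low with M9, against 1402 with K8. Of these 14, 4 were at 0 in TRP1high with M9, among them Pax5. Of the natural killer cell markers, 5 of 10 were in the tables and summed to 8.27 to 88.8 normalized counts, highest in TRP1low with K8, and Ncr1, which defines these cells, was not among the 5. Of the myeloid markers, 9 of 14 were in the tables, with sums of 374 normalized counts in TRP1high with M9, against 231 with K8, and of 147 in TRP1low with M9, against 439 with K8. The TRP1high sums were mostly Mpeg1 (256 reads with M9, 154 with K8) and Cd68 (109 and 51). By gene, 4 of the 9 were higher with M9 in TRP1high and 5 were lower, with a median log2 difference of -0.67. Of the mast cell markers, 3 of 6 were in the tables, with sums of 24.9 to 30.9. All 4 CD4 T cell markers summed to 45.7 to 137 normalized counts, and Cd4 itself was at 0 reads in TRP1high with M9, at 2 with K8, and at 17 and 19 in TRP1low with M9 and K8. The part that such cells had in the granule gene values was not tested, and in bulk RNA fewer cells of a type and less RNA per cell cannot be told apart.

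Prf1 and Srgn were the only 2 of the 10 genes at least 2-fold apart between peptides with both TCRs, while Lamp1 was the gene with the smallest range. The 250 bases before the RefSeq start of each (build GRCm38.p6) are shown so that the sequences can be compared next to the levels. They lie at chr10:61297586-61297835 on the plus strand for Prf1, chr10:62527446-62527695 on the minus strand for the first of 2 Srgn starts and chr8:13158911-13159160 on the plus strand for Lamp1. Capitals mark the ETS core GGAAG and the RUNX motif TGTGGT on either strand.
Prf1: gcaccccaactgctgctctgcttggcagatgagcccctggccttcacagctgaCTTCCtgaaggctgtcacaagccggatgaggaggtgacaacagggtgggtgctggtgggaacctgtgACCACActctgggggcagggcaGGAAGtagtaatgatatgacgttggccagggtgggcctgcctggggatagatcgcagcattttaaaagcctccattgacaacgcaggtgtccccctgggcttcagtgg
Srgn: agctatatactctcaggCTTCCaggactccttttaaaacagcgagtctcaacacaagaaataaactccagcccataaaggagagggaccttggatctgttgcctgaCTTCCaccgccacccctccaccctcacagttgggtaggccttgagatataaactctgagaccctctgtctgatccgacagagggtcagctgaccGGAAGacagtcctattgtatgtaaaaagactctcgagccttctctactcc
Lamp1: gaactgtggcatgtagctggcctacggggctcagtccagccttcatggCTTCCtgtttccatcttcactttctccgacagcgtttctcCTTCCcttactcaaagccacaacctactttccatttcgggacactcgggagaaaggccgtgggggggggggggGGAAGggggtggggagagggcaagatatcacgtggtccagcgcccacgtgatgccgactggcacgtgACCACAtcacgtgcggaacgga

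Of 32851 RefSeq promoters of that length, 64.1% held GGAAG, 14% TGTGGT, 12.3% the T-box letters GTGTGA, 6.75% the AP-1 letters TGANTCA, 7.02% the STAT letters TTCNNNGAA and 66.2% the E-box CANNTG, on either strand and with overlaps between motifs allowed. The Prf1 window held GGAAG at 2 places, TGTGGT at 1 and CANNTG at 4. In the first Srgn window GGAAG stood at 3 places and CANNTG at 2, and the window of the second start held TGTGGT at 1 place and CANNTG at 3. Lamp1, which was level across libraries, held GGAAG at 3 places, TGTGGT at 1 and CANNTG at 4, each of the last reading CACGTG. The T-box, AP-1 and STAT letters were in none of these 4 windows. These matches are descriptions of the letters only.

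The first comparison asks how granule gene transcripts differed between the M9 and the K8 peptide. The M9 libraries held more perforin, serglycin, Nkg7 and serpin transcript than the K8 libraries with both TCRs, and the docking gene Rab27a, the priming gene Unc13d and the protease gene Ctsw were less than 2-fold apart with no shared direction. Prf1 differed most, by 11-fold and 6.90-fold. Stx11 was 2.65-fold higher with M9 in TRP1high and level in TRP1low.

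**Figure D1:**
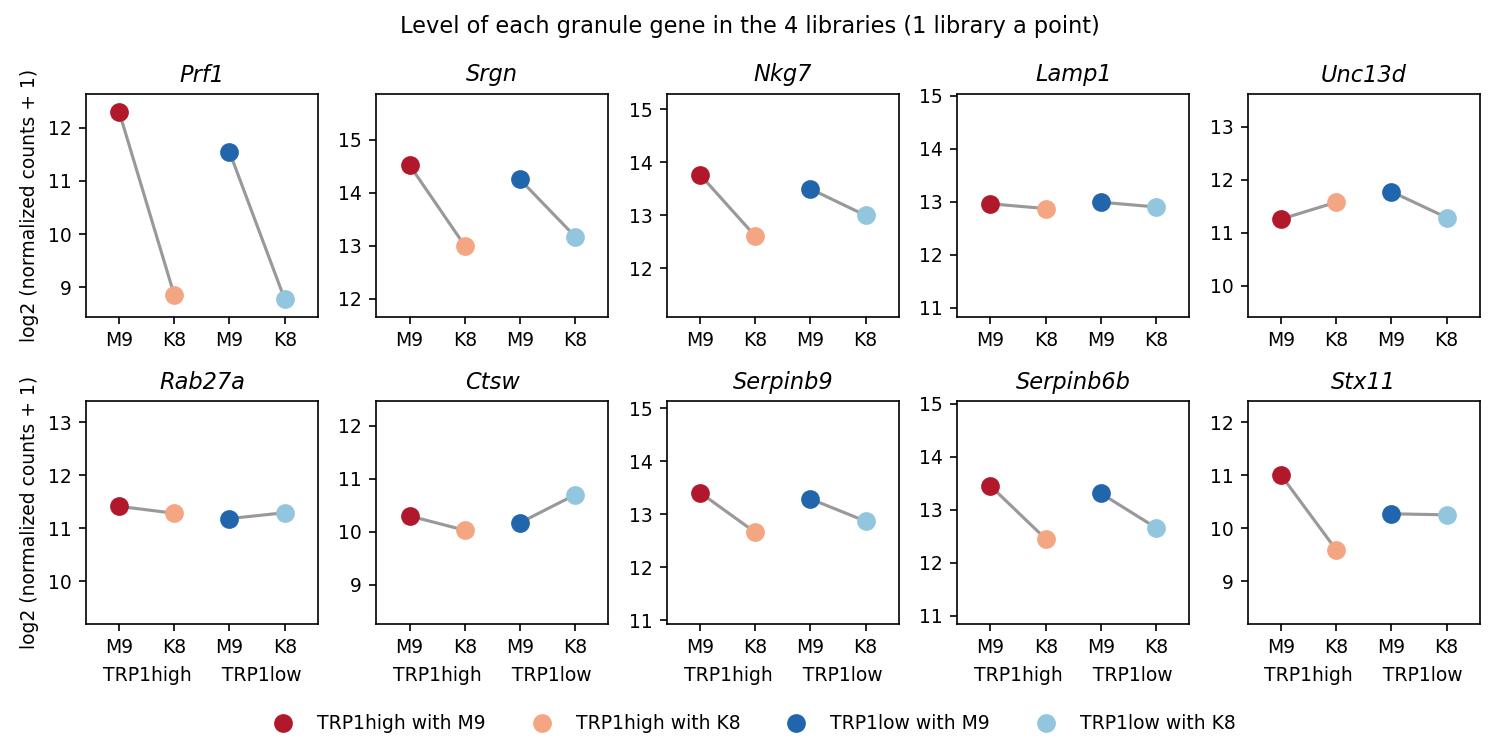
Level of each of the 10 granule genes in each library, as log2 (normalized counts + 1), with 1 point per library, lines joining the M9 and K8 libraries of a TCR, and a y axis of the same height in every panel. Prf1 stood at 12.31 and 11.55 with M9, against 8.85 and 8.77 with K8, while Lamp1 stayed between 12.87 and 12.99.

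Prf1 (chromosome 10, 61297833 to 61304680, mm10) stood at 12.31 in TRP1high with M9, against 8.85 with K8, and at 11.55 in TRP1low with M9, against 8.77 with K8. Both M9 libraries lay above both K8 libraries, and the K8 libraries were nearly alike. In estimated reads this was 5120 with M9, against 462 with K8, in TRP1high, and 2867 with M9, against 319 with K8, in TRP1low. The ratio of normalized counts was 11 in TRP1high (95% exact counting interval 9.99 to 12.1) and 6.90 in TRP1low (6.14 to 7.76). In the order of log2 differences of all 16102 genes, Prf1 took place 86 from the top in TRP1high and place 369 in TRP1low.

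Srgn (chromosome 10, 62493833 to 62527451) stood at 14.52 in TRP1high with M9, against 13.00 with K8, and at 14.25 in TRP1low with M9, against 13.17 with K8. Its M9 libraries again lay above its K8 libraries, at ratios of 2.87 (2.79 to 2.94) in TRP1high and 2.12 (2.06 to 2.18) in TRP1low. Nkg7 (chromosome 7, 43437073 to 43438249), a small membrane protein of granules, stood at 13.77 in TRP1high with M9, against 12.61 with K8, and at 13.50 in TRP1low with M9, against 13.00 with K8. The ratio was 2.23 (2.17 to 2.30) in TRP1high and 1.41 (1.37 to 1.46) in TRP1low, so that only the TRP1high pair passed 2-fold. Lamp1 (chromosome 8, 13159161 to 13175338) stood at 12.96 in TRP1high with M9, against 12.87 with K8, and at 12.99 in TRP1low with M9, against 12.90 with K8. Its ratio was 1.07 in each pair (1.03 to 1.10 in both), the smallest range over the 4 libraries of the 10 genes, at 0.12 on the log2 scale.

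The serpins were higher with M9 in both pairs by less than Srgn. Serpinb9 (chromosome 13, 33003250 to 33017957) stood at 13.41 in TRP1high with M9, against 12.66 with K8, and at 13.29 in TRP1low with M9, against 12.87 with K8, giving ratios of 1.68 (1.63 to 1.73) and 1.34 (1.29 to 1.38). Serpinb6b (chromosome 13, 32965209 to 32979067), a paralogue in the same serpin cluster, stood at 13.45 in TRP1high with M9, against 12.45 with K8, and at 13.31 in TRP1low with M9, against 12.66 with K8. The 2-fold line ran through its TRP1high value, with a ratio of 2.0 (1.94 to 2.07), and scaling the libraries to equal totals put it just under, at a log2 difference of 0.98. In TRP1low the ratio was 1.57 (1.52 to 1.63).

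Docking, priming and fusion genes followed the peptide in 1 gene and 1 pair. Stx11 (chromosome 10, 12938209 to 12964298) stood at 11.00 in TRP1high with M9, against 9.59 with K8, a ratio of 2.65 (2.44 to 2.89). In TRP1low the 2 libraries could not be told apart by counting error, at 10.27 with M9 and 10.25 with K8 (ratio 1.01, 0.929 to 1.11), and with libraries scaled to equal totals the log2 difference was -0.04. Unc13d (chromosome 11, 116062095 to 116077961) stood at 11.26 in TRP1high with M9, against 11.58 with K8, and at 11.78 in TRP1low with M9, against 11.29 with K8. Its M9 library was thus 1.24-fold lower (1.18 to 1.31) in TRP1high and 1.40-fold higher (1.32 to 1.48) in TRP1low. Rab27a (chromosome 9, 73044854 to 73097629) stayed between 11.18 and 11.41 in the 4 libraries, with log2 differences of 0.13 in TRP1high and -0.11 in TRP1low.

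Ctsw (chromosome 19, 5465043 to 5468507) stood at 10.30 in TRP1high with M9, against 10.03 with K8, and at 10.17 in TRP1low with M9, against 10.70 with K8. TRP1low with K8 held the most Ctsw of the 4 libraries, and it was the only gene of the 10 for which that library was the highest. The M9 library was 1.21-fold higher (1.11 to 1.31) in TRP1high and 1.45-fold lower (1.33 to 1.57) in TRP1low.

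In counts, the M9 library of TRP1high held 5 of the 10 genes at 2-fold or more above the K8 library (Prf1, Srgn, Nkg7, Serpinb6b and Stx11) against 5.14% of all 16102 genes, and 0 were 2-fold lower against 4.73%. In TRP1low, 2 of the 10 (Prf1 and Srgn) were at least 2-fold higher against 7.67% of all genes, and 0 were lower against 7.43%. A gene counted had at least 10 normalized counts in 1 library of the pair. The median log2 difference of the 10 genes was 0.87 in TRP1high and 0.45 in TRP1low, beside -0.016 and 0.023 over all genes. For 7 of the 10 genes both M9 libraries lay above both K8 libraries, which held for 16.8% of all genes, and for 0 they lay below, which held for 15.7%. These 7 were Prf1, Srgn, Nkg7, Lamp1, Serpinb9, Serpinb6b and Stx11, and Stx11 left the 7 under equal totals and under a median log2 ratio of 0.

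**Figure D2:**
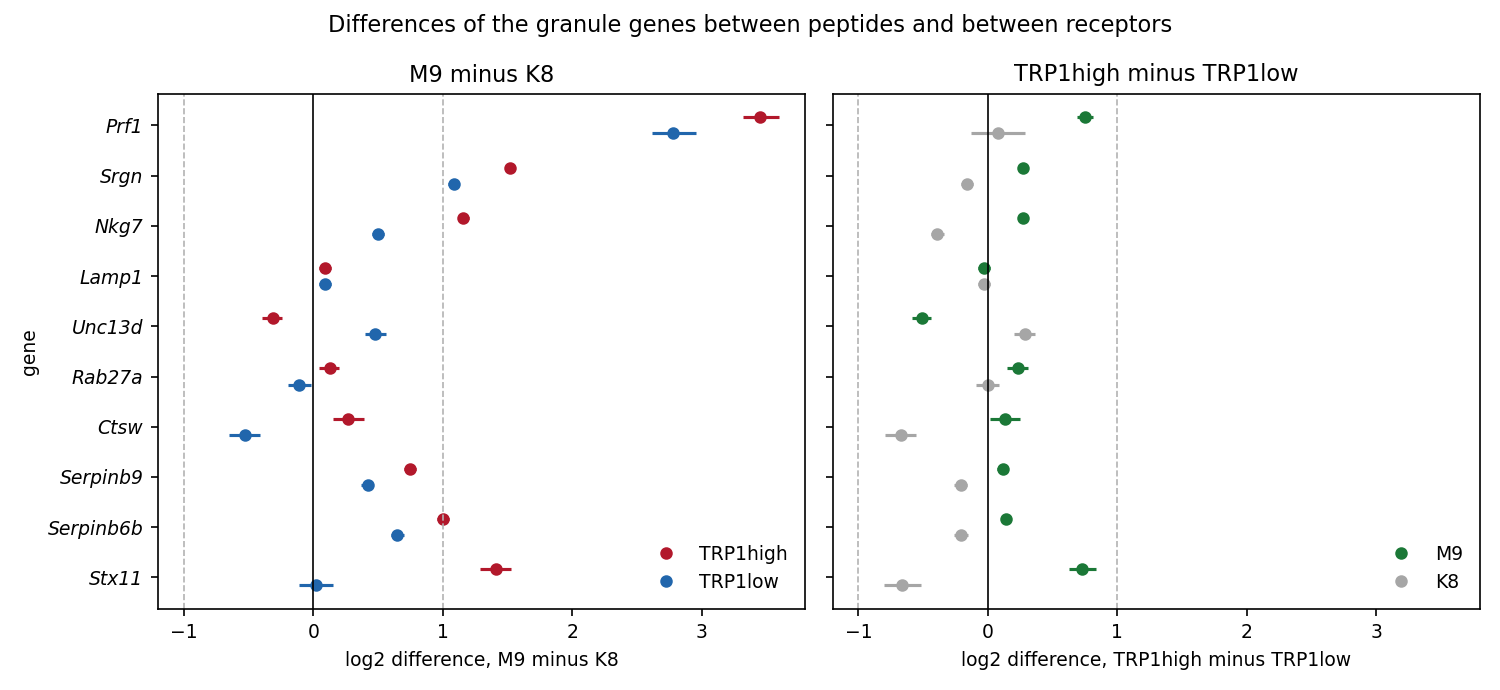
Log2 difference of each gene, M9 minus K8 on the left for each TCR and TRP1high minus TRP1low on the right for each peptide, with 95% exact counting intervals as bars (often narrower than the point) and dashed lines at 2-fold. The peptide differences of Prf1 (3.45 and 2.78) and Srgn (1.52 and 1.09) lie past 2-fold with both TCRs, and every receptor difference lies within 2-fold.

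The additive limma fit over the 4 libraries, which takes the TRP1high and TRP1low pairs as repeats of the peptide difference, called 0 of 16102 genes and 0 of the 10 (0%). Prf1 averaged 11.93 with M9 and 8.81 with K8, a log2 difference of 3.12 (SE 0.29) with a Benjamini-Hochberg adjusted p of 0.58 in limma, and was higher with M9 in 2 of 2 pairs. Srgn differed by 1.30 (SE 0.23, limma adjusted p 0.58) and Serpinb6b by 0.83 (SE 0.22, limma adjusted p 0.60), each also higher in 2 of 2 pairs. At an unadjusted p under 0.05 these 3 of the 10 genes passed in limma, against 8.33% of all genes. Over the alternative settings this count ran from 2 to 5, and the share of all genes from 7.07% to 11.7%. With 1 residual degree of freedom, the adjusted p of Prf1 ran from 0.058 to 0.66 over the alternative settings.

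The second comparison asks how the granule genes differed between the receptors under the same peptide. None of the 10 genes was 2-fold apart between TRP1high and TRP1low with either peptide, and most were a little higher in TRP1high with M9 and a little lower in TRP1high with K8. With M9, the ratio of TRP1high to TRP1low was 1.69 (1.61 to 1.76) for Prf1 and 1.66 (1.54 to 1.78) for Stx11. With K8, Prf1 was level at 8.85 in TRP1high and 8.77 in TRP1low, a ratio of 1.06 (0.914 to 1.22) that counting error covers.

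With M9, 0 of the 10 genes were at least 2-fold higher in TRP1high against 7.37% of all genes, and 0 were lower against 5.58%. With K8, the counts were 0 higher against 10.6% and 0 lower against 8.35%. The median log2 difference was 0.19 with M9 and -0.19 with K8, beside -0.033 and -0.002 over all genes. With M9, 8 of the 10 genes lay above 0, against 46.9% of all genes. With K8, 8 of the 10 lay below 0 and 2 above it, against 49.1% of all genes above 0. Unc13d went the other way, 1.43-fold lower (1.35 to 1.5) in TRP1high with M9 and 1.22-fold higher (1.15 to 1.29) with K8. Ctsw was 1.59-fold lower (1.47 to 1.73) and Stx11 1.58-fold lower (1.43 to 1.74) in TRP1high with K8. Lamp1 had a ratio of 0.980 with each peptide, and Rab27a one of 1.17 (1.11 to 1.24) with M9 and 0.998 (0.940 to 1.06) with K8.

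For 0 of the 10 genes did both TRP1high libraries lie above both TRP1low libraries, which held for 22.7% of all genes, and for 0 did they lie below, which held for 25.1%. In the additive limma fit 0 of the 10 and 0 of all genes (0%) had a Benjamini-Hochberg adjusted p under 0.05 for the receptor, and 0 of the 10 had an unadjusted p under 0.05, against 12.7% of all genes. Prf1 averaged 10.58 in TRP1high and 10.16 in TRP1low, a log2 difference of 0.42 (SE 0.29, limma adjusted p 0.54). No such p shows that the receptors act alike, since the fit has 1 residual degree of freedom.

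The peptide difference of TRP1high minus that of TRP1low was at least 2-fold in the upward direction for Stx11 only, at 1.39 on the log2 scale, which makes 1 of 10 genes against 9.07% of all genes, and 0 of 10 were at least 2-fold downward against 9.68%. Ctsw (0.80), Prf1 (0.67) and Nkg7 (0.66) had smaller positive values, Lamp1 was at 0 to 2 decimals, and Unc13d was at -0.80. This difference has no residual degree of freedom and was not tested. The Nkg7, Serpinb9, Serpinb6b and Stx11 values followed the same order of libraries as Srgn, with TRP1high with K8 lowest, then TRP1low with K8, TRP1low with M9 and TRP1high with M9.

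Per kilobase of annotated exon, Nkg7 was the most abundant of the 10 transcripts in every library, at 15253 normalized counts per kilobase in TRP1high with M9, against 6831 with K8, and 12635 in TRP1low with M9, against 8938 with K8. Srgn came second, at 10715 in TRP1high with M9, against 3739 with K8, and 8876 in TRP1low with M9, against 4183 with K8. On this per-kilobase scale Prf1 moved within the order: at 1961 and 1164 with M9 it stood above Rab27a (701 and 598) and Unc13d (526 and 749), and at 179 and 169 with K8 it stood below both, at 643 and 644 for Rab27a and 654 and 536 for Unc13d. With K8 it was the least abundant of the 10 transcripts with both TCRs, next to Stx11 at 183 in TRP1high. Set against Lamp1 of the same library, Prf1 stood at a log2 ratio of normalized counts, not scaled for length, of -0.66 in TRP1high with M9, against -4.02 with K8, and of -1.44 in TRP1low with M9, against -4.13 with K8.

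Some of these transcripts share sequence with other genes. Of the 31-base words of the Serpinb6b transcripts, 6.83% also stood in transcripts of other genes, most often Serpinb6c (3.76%), and of those of Serpinb9 4.94%, most often Serpinb9b (3.79%). Lamp1 overlaps the gene Grtp1 on the other strand, with which it shares 7.30% of its words, and Ctsw overlaps Fibp on the other strand with no shared word. Rab27a holds the gene model Gm27186 on its own strand (3.15% of its words). Prf1 shared 0.392% and Nkg7 none. No source used here says whether reads were counted by strand, so reads from the stretch that Lamp1 shares with Grtp1 cannot be assigned to either.

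The wider granule apparatus is given by lists of related genes, whose counts stand beside the shares of all genes. Of all genes, 5.14% passed 2-fold upward with M9 in TRP1high and 4.73% downward, and in TRP1low it was 7.67% upward and 7.43% downward. Set against TRP1low, TRP1high had 7.37% of all genes upward and 5.58% downward with M9, and 10.6% upward and 8.35% downward with K8. Of 31 genes of granule transport, docking, priming and fusion, 29 were measured. The TRP1high pair had 0 of them 2-fold higher and 2 lower with M9, the TRP1low pair 0 higher and 3 lower, with medians of -0.05 and 0.04. Sytl2, a synaptotagmin-like Rab27 effector, was the 1 gene at least 2-fold lower in both pairs, at few reads. It had 10 with M9 against 37 with K8 in TRP1high (3.71-fold lower, 1.82 to 8.42). In TRP1low it had 4 with M9 against 39 with K8 (12.7-fold lower, 4.59 to 49.0). Stxbp2, the Munc18-2 partner of syntaxin 11, was named after its values were seen and differed by 0.20 in TRP1high and 0.09 in TRP1low. Between receptors the list held 0 genes 2-fold apart with M9, and 1 higher and 2 lower in TRP1high with K8. Sytl3, another Rab27 effector, had the largest mean difference, at 0.98 with M9 and 0.65 with K8.

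Granule and lysosome content and processing genes went both ways. All 21 were measured, with medians of 0.17 in TRP1high and 0.09 in TRP1low. Cd63, a tetraspanin of granule membranes, passed 2-fold upward in both pairs, with 46 reads with M9 against 9 with K8 in TRP1high (4.99-fold, 2.45 to 11.8) and 41 with M9 against 14 with K8 in TRP1low (2.30-fold, 1.2 to 4.46). Ctsh, a lysosomal cathepsin, was lower in both, with 1 read with M9 against 32 with K8 in TRP1high (58.0-fold, 5.39 to 1310) and 10 against 20 in TRP1low (2.57-fold, 1.17 to 6.24). The single read lies under the floor of 3 reads, and Ctsh moved with the B cell marker sum, which was lower with M9 with both TCRs. The part of such cells was not tested. No other gene of the list was 2-fold apart in TRP1high, and in TRP1low Igf2r, a mannose 6-phosphate receptor that sorts lysosomal enzymes, was higher by 1.82 and Acp2, a lysosomal phosphatase, was lower (-1.92). Both were named after their values were seen. Calr (calreticulin), which chaperones perforin, differed by -0.03 and -0.04, and Cst7 (cystatin F), an inhibitor of granule cathepsins, by 0.73 in each pair, and these too were named after their values were seen. Between receptors, the M9 libraries had 0 genes 2-fold higher and 1 lower in TRP1high, and the K8 libraries 1 higher and 1 lower. Ctsh had the largest mean difference (-2.90 with M9, at 1 read against 10, and 0.23 with K8).

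Of 13 serpins and cystatins 8 were measured, with medians of 0.46 in TRP1high and -0.02 in TRP1low. The TRP1high pair had 1 of them 2-fold higher and 1 lower with M9, the TRP1low pair 0 higher and 1 lower. Serpinb1a, an intracellular inhibitor of neutrophil-type serine proteases, was lower in both pairs, at 5 reads with M9 against 73 with K8 in TRP1high (15.8-fold, 6.03 to 46.7) and 7 against 20 in TRP1low (3.56-fold, 1.51 to 10.4). It too moved with the B cell marker sum. Between receptors 1 gene was higher and 0 lower in TRP1high with each peptide, and Serpinb9b had the largest mean difference, at 10 reads in TRP1high against 2 in TRP1low with M9, and 2 against 0 with K8.

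Enzymes that build the glycosaminoglycan chains of serglycin had a median of 0.05 in TRP1high, where 0 of the 15 measured (of 18) were 2-fold higher (5.14% of all genes) or lower (4.73%). In TRP1low, where 7.67% of all genes were higher and 7.43% lower, 3 were 2-fold higher with M9 (Chsy1 by 1.03, Dse by 1.07 and Ndst2 by 1.81) and 2 lower (Xylt1 at -1.12 and Chpf2 at -1.08), with a median of 0.26, and apart from Ndst2 these were named after their values were seen. Ndst2, a sulfotransferase of heparin-type chains, had the largest mean difference, at 605 reads with M9 against 418 with K8 in TRP1high and 929 against 203 in TRP1low. Between receptors 1 was higher and 0 lower in TRP1high with each peptide, and Xylt2, an enzyme that starts the chains, differed most, by 1.51 with M9 and 0.94 with K8.

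**Figure D3:**
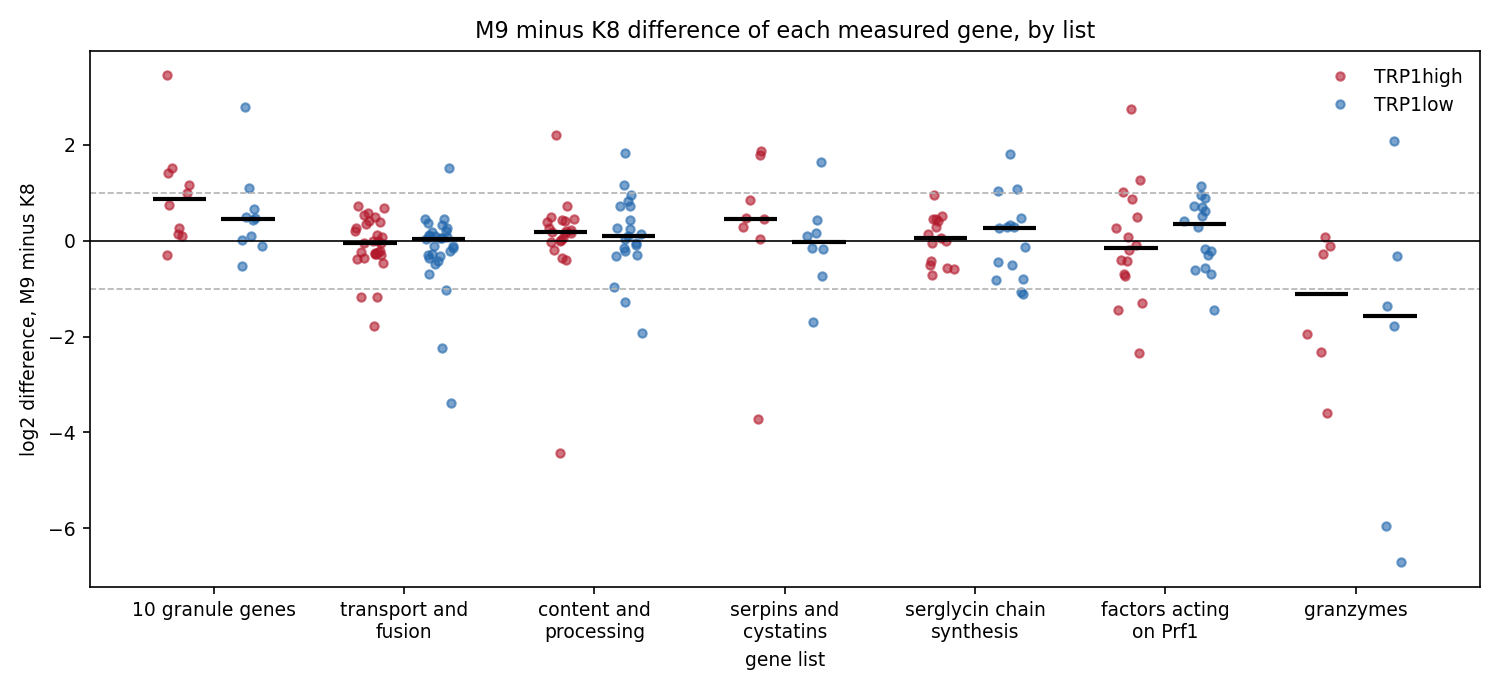
M9 minus K8 log2 difference of every measured gene of the 10 granule genes and of 6 lists around them, TRP1high left and TRP1low right in each list, with black bars at the medians and dashed lines at 2-fold, genes at few reads or at 0 in a library included. The medians of the 10 granule genes are 0.87 and 0.45, those of 5 other lists lie between -0.15 and 0.46, and those of the granzymes are -1.11 and -1.57.

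Transcription factors known to act on Prf1 were all measured (16 of 16) and had medians of -0.15 in TRP1high and 0.34 in TRP1low. With M9, 3 were 2-fold higher (Zeb2, Bhlhe40 and Stat4) and 3 lower (Eomes, Prdm1 and Runx1) in TRP1high, beside 5.14% and 4.73% of all genes. In TRP1low 1 was higher (Rbpj) and 1 lower (Runx1), beside 7.67% and 7.43%. Runx1, a Runt-domain factor, was the 1 gene past 2-fold in both pairs, at 61 reads with M9 against 151 with K8 in TRP1high (2.51-fold lower, 1.84 to 3.42) and 78 against 164 in TRP1low (2.72-fold lower, 2.08 to 3.64). Zeb2, a zinc finger factor of terminal effector cells, had the largest mean difference, at 274 reads with M9 against 40 with K8 in TRP1high (6.83-fold, 4.86 to 9.71) and 29 against 11 in TRP1low (2.0-fold, 0.980 to 4.49). Eomes (-1.44 in TRP1high and -0.21 in TRP1low) and Tbx21, which encodes T-bet (0.27 and 0.28), the T-box factors of killer cells, were named after their values were seen. Between receptors, 2 of the 16 were higher and 1 lower in TRP1high with M9, and 5 were higher and 0 lower with K8, beside 10.6% and 8.35% of all genes. Runx3, the Runt-domain factor of the CD8 lineage, had a TRP1high to TRP1low ratio of 2.14 (1.99 to 2.29) with M9 and 3.49 (3.20 to 3.81) with K8. That of Zeb2 was 8.95 (6.07 to 13.6) with M9 and 2.63 (1.34 to 5.73) with K8.

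Granzymes, the cargo that perforin delivers, had medians below 0 for M9 minus K8, where Prf1 was higher with M9. Of the 10 granzyme genes listed 6 were measured, with medians of -1.11 in TRP1high and -1.57 in TRP1low. With every library under 3 reads set to that floor, an alternative chosen after the data were seen, the medians were -0.19 and -1.57. The TRP1high pair had 0 at 2-fold higher and 2 lower with M9, beside 5.14% and 4.73% of all genes, and the TRP1low pair 1 higher and 4 lower, beside 7.67% and 7.43%. Gzma, which encodes the tryptase granzyme A, was lower in both pairs and had the largest mean difference, at 6 reads with M9 against 83 with K8 in TRP1high (13.9-fold lower, 6.15 to 39.1) and 7 against 640 in TRP1low (119-fold lower, 57.5 to 298). Gzmf, a gene of the granzyme B cluster, was also past 2-fold in both, at 4 reads with M9 against 24 with K8 in TRP1high (6.05-fold lower, 2.08 to 24.0) and 4 against 9 in TRP1low (2.93-fold lower, 0.819 to 13.0). The second of these intervals includes no difference. Between receptors 0 were 2-fold apart with M9, and 1 was higher and 3 were lower in TRP1high with K8. Gzmk, another tryptase gene, differed most there, at 0 reads in both TCRs with M9, and at 3 reads in TRP1high against 45 in TRP1low with K8 (21.5-fold lower, 6.60 to 103). Gzmb, which encodes granzyme B and was named after its values were seen, held by far the most reads of the 6 in every library. It stood at 17.19 in TRP1high with M9, against 17.12 with K8, and at 16.97 in TRP1low with M9, against 14.89 with K8. Its log2 difference was thus 0.08 in TRP1high, where that of Prf1 was 3.45, and 2.08 in TRP1low, where that of Prf1 was 2.78.

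The genes most like Prf1 in their pattern over the 4 libraries were found among 10046 others with a mean of at least 100 normalized counts, by the Euclidean distance between log2 values centred on each gene's own mean. Acsl6, an acyl-CoA synthetase, was nearest (distance 0.44), with log2 differences of 3.47 in TRP1high and 2.21 in TRP1low, followed by Farp1 (0.61). The cadherin Cdh23 (0.96) and the surface glycoprotein Cd200 (1.0) took places 4 and 5. Of the granule genes Srgn came at place 61 (1.86), then Nkg7 at 222, Serpinb6b at 223, Stx11 at 312 and Serpinb9 at 480. Lamp1, Rab27a, Unc13d and Ctsw took places 3240, 3904, 4343 and 6256. With 4 libraries this order is a description.

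**Figure D4:**
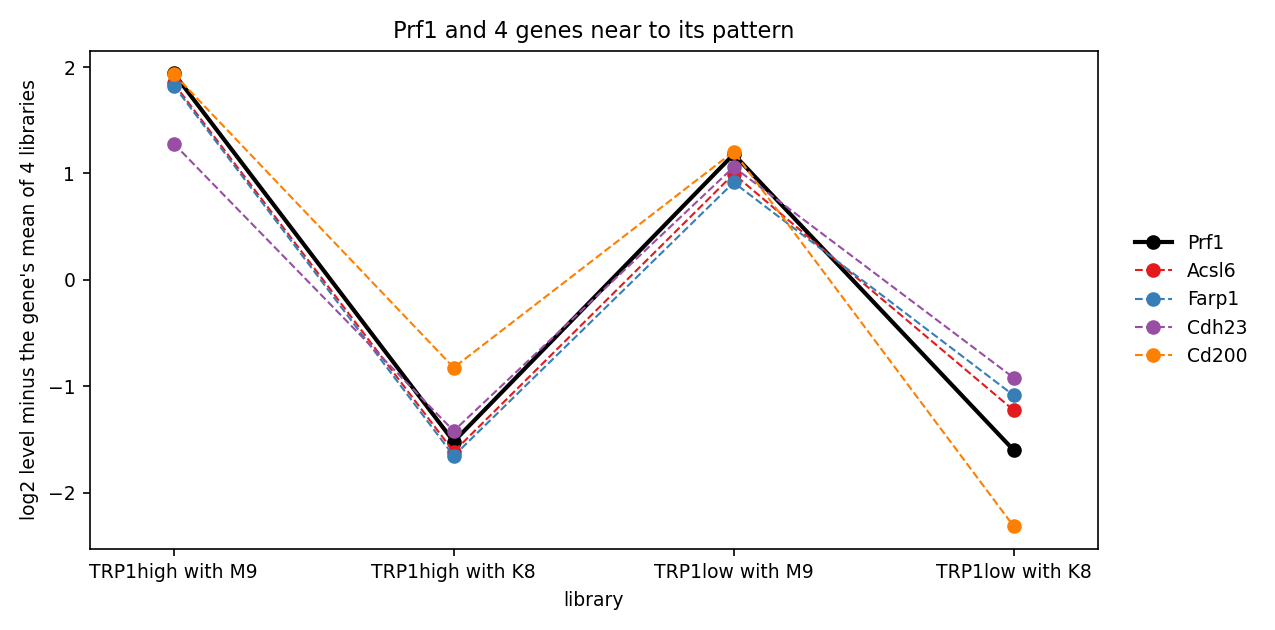
Log2 level minus the gene's own mean over the 4 libraries (y axis) in each library (x axis) for Prf1 and 4 of the 5 genes nearest to it, with 1 point per library and lines that only join the points of a gene. All 5 genes shown stand above their mean in the M9 libraries and below it in the K8 libraries, and the distances to Prf1 run from 0.44 (Acsl6) to 1.0 (Cd200).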

How the data were processed

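RNA from sorted T cells was sequenced in 4 libraries, 1 per group, grouped by the sample titles. Each gene symbol has 1 deposited log2 value, which the file headers call normalized counts. The lowest value was 0 and most low values stood at multiples of 1 step, so the values were read as log2 of a count over a size factor, plus 1. The submitters' processing notes list Salmon 0.8.2, DESeq2 1.20.0 and mm10. Settings, annotation and strandedness are not given in any source used here. The step (0.989, 0.998, 1.05 and 1.37 normalized counts in TRP1high with M9 and K8 and TRP1low with M9 and K8) turned values into estimated reads. Between 55.3% and 56.5% of values up to 50 reads lay within 0.01 of a whole read and the rest did not. The reads of a gene are thus estimates, and no negative binomial model was run.

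Differences between 2 libraries have no p-value. A gene was counted at 2-fold on the deposited scale if either library of the pair reached 10 normalized counts. Ratios leave out the added 1. Their 95% exact (Clopper-Pearson) intervals treat the rounded estimated reads as counts and cover counting error only, since reads carry no molecular identifiers. limma 3.58.1 in R 4.3.3 fitted TCR and peptide additively across all 16102 genes with Benjamini-Hochberg adjustment at 0.05, a step tested on simulated data. Its 1 residual degree of freedom measures the disagreement of the pairs, not the spread between cultures. Positions, exon lengths and 31-base words come from GENCODE M21 (GRCm38, the mm10 build), which held 16200 of the 16338 row names (99.16%). Promoters come from RefSeq (GRCm38.p6), where all 10 genes matched. Members and lists were chosen with earlier results of these data known. Beyond the 10 genes, the text names genes past 2-fold with 1 direction in both pairs, the gene with the largest mean difference of each list, and the 5 nearest to Prf1, of which 1 is not reported here. Alternatives were other folds, count minimums, pseudocounts, scalings, filters and limma settings.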

Additional observations from a re-analysis of the deposited data

Results flagged for a closer look

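With 1 library per group, a difference between groups was looked for as opposite directions of a gene, and none of these was tested. Between peptides, Unc13d was lower with M9 in TRP1high and higher in TRP1low (peptide difference of TRP1high minus that of TRP1low -0.80), while Rab27a (0.23) and Ctsw (0.80) were higher with M9 in TRP1high and lower in TRP1low. The same quantity describes the receptor difference with M9 minus that with K8. By that reading Srgn (0.43), Nkg7 (0.66), Serpinb9 (0.33), Serpinb6b (0.35), Stx11 (1.39), Ctsw (0.80) and Rab27a (0.23) were higher in TRP1high with M9 and lower with K8, Rab27a with K8 by less than counting error, and Unc13d (-0.80) had the opposite order. Across all genes, 9.07% were at least 2-fold upward and 9.68% at least 2-fold downward on this measure, and of the 10 genes Stx11 was at least 2-fold upward. These shares are for a 2-fold size, not for opposite directions alone. The share of all genes with opposite directions was not counted, so the genes named here have no such share beside them.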

How the results depend on the processing

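No paired analysis was possible because each group was a single library, other than the additive limma fit, in which TCR is a term. No negative binomial test was run. At 3-fold, 1 gene (Prf1) was counted with M9 in TRP1high, 1 (Prf1) in TRP1low and 0 for the difference between the TCRs. At 1.5-fold, 2 genes were counted between receptors with M9, 2 with K8, and 5 for the difference between the TCRs. These follow from the threshold itself, and the shares of all genes at 3-fold and at 1.5-fold were not computed. Of 82 counts under other settings, 73 were within 1.5 times the reported count. In limma with trend and robust estimation, 1 gene of all tested had an adjusted p under 0.05 for the peptide and 184 for the receptor, and with a pseudocount of 8 it was 26 for the receptor, against 0 as reported, and 0 of the 10 genes were among them. The count of the 10 at an unadjusted limma p under 0.05 for the peptide was 3 as reported. It was 5 with trend and robust estimation (11.7% of all genes) and 4 with a pseudocount of 8 (9.18%). It was 2 with a pseudocount of 0.25 (7.07%), equal totals (8.33%) or a median log2 ratio of 0 (8.27%). The cause was not tested. Other pseudocounts and scalings moved a single difference of the 10 genes by at most 0.07, and the additive peptide difference of Rab27a turned from 0.01 to -0.03 under equal totals. Leaving out a library leaves 1 pair and no test: the peptide difference of Prf1 was then 2.78 to 3.45, that of Srgn 1.09 to 1.52 and that of Stx11 0.02 to 1.41. Depth limits the ratios of Sytl2, Cd63, Ctsh, Serpinb1a, Serpinb9b, Gzmf and Gzmk, which rest on few reads. The same holds for Gzma with M9 and for Zeb2 in TRP1low.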

Other observations

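The genes on either side of Prf1 were looked at after the values above were seen. Of the 6 measured protein-coding genes within 250 kb of Prf1 on chromosome 10, Adamts14, a secreted metalloprotease gene 24395 bases away, had the same direction at a far lower level: it stood at 6.32 in TRP1high with M9, against 2.29 with K8, and at 4.72 in TRP1low with M9, against 1.47 with K8, which is under the floor of 3 reads. Pald1, 14976 bases away on the other side, stood at 5.18 in TRP1high with M9, against 3.22 with K8, and under that floor in TRP1low, at 1.34 with M9 and 1.0 with K8. The more abundant neighbours differed by less than 2-fold, Sgpl1 at 0.02 and 0.00, Eif4ebp2 at -0.40 and -0.31 and Lrrc20 at -0.42 and -0.16 in TRP1high and TRP1low, and Tbata stayed below 10 normalized counts. Cdh23, among the 5 genes nearest to Prf1 in pattern, lies 601 kb from it on the same chromosome.

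Srgn lies 1189 kb from Prf1, and none of its 7 neighbours above 100 normalized counts was 2-fold apart between peptides. Among its low neighbours, Stox1 reached 12.1 normalized counts at most and was lower with M9. It stood at 0.49 in TRP1high with M9, against 2.18 with K8, and at 0.00 in TRP1low with M9, against 3.71 with K8. Both M9 values lie under the floor of 3 reads. The gene 4930507D05Rik stayed below 10 normalized counts. Vps26a, 7028 bases away, differed by -0.26 in TRP1high and -0.07 in TRP1low, Kif1bp by 0.15 and -0.12, and Hk1, a hexokinase gene, by 0.53 and 0.49. No explanation of these values was tested.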
